A study of Mus musculus with 8 samples.

Results

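The genes of autophagy and of the lysosome were compared between 3 populations of mouse skeletal muscle. Members were the rows of the deposited gene table whose symbol begins with Atg and a digit, is Cts and 1 letter, is Lamp and a digit or begins with Atp6v, together with Sqstm1, Map1lc3a, Map1lc3b, Gabarap, Gabarapl1, Becn1, Ulk1, Ulk2, Tfeb, Bnip3 and Bnip3l. The rule found 70 of the 36048 genes in the table, and 58 of them were measured well enough to be tested, among 16700 genes tested in all: at least 2 libraries had to give an FPKM (fragments per kilobase of transcript, scaled to the library's fragments) of 1 or more.

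Total RNA was sequenced from endothelial cells (EC, the lining of blood vessels, n = 3), satellite cells (SC, the stem cells of muscle, n = 2, numbered 1 and 3) and single muscle fibres (SMF, the contractile cells, n = 3). EC and SC came from hindlimb muscles, about 100000 cells per library sorted by flow cytometry, and for each fibre library 100 undamaged fibres were taken manually from the extensor digitorum longus, a fast hindlimb muscle, once they had rested for 3 h. The labels name no strain, age, treatment or genetic change for any group, nor do they tie replicates to different animals. The p-values therefore reflect the scatter among 8 libraries, which could be purely technical. They also state that 1 sample, left unnamed, fell short of the RNA integrity threshold. Population, muscle of origin and way of isolation cannot be told apart in this design.

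Autophagy encloses part of the cytoplasm, or a whole organelle, in a double membrane and delivers it to the lysosome. The ULK1 complex starts the process, the beclin 1 lipid kinase complex prepares the membrane, and 2 conjugation systems built from ATG proteins attach the ATG8 family (LC3 and GABARAP proteins) to it. Cargo receptors such as p62 (Sqstm1) bind what is to be degraded, and BNIP3 and NIX (Bnip3l) mark mitochondria. In the lysosome, the proton pump (V-ATPase, a membrane sector V0 and a cytosolic sector V1) keeps the acid pH at which cathepsins cut proteins, and LAMP proteins line the membrane. In muscle fibres this route takes part in the turnover of proteins and mitochondria, and it is known to respond to fasting, disuse and exercise.

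Markers matched the labels. Summed over 6 markers each, endothelial genes lay at 1019 to 1044 FPKM in EC and at most 23.0 elsewhere, satellite cell genes at 649 and 666 in SC and at most 22.7 elsewhere, and fibre genes at 24155 to 25852 in SMF. Fibre genes were at 147 in SC 1 and 234 in SC 3, against 9.86 to 17.1 in EC. The markers of macrophages and other leukocytes summed to 69.2, 16.5 and 92.9 FPKM in EC 1, 2 and 3, to 35.0 and 47.4 in SC 1 and 3, and to 2.32 to 7.34 in SMF. Markers of pericytes and smooth muscle also differed within EC, at 540 and 651 in EC 1 and 3 against 219 in EC 2. In SC 1 and 3 they summed to 158 and 203. Of this, Acta2 alone gave 135 and 194, while it was at 31.5 to 65.6 in EC. Markers of fibro-adipogenic progenitors summed to 148 and 139 in SC. That sum rests on Dpt (103 and 95.5 in SC), and the other 5 markers summed to 44.3 and 43.5 in SC against 51.7, 16.1 and 54.9 in EC. Deposited coverage corresponded to 278 to 368 Mb of aligned sequence in EC and SC and to 525 to 581 Mb in SMF.

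FPKM divides by all fragments in the library, and the most abundant transcripts took unequal shares in the 3 populations. Median-of-ratios scaling would divide FPKM by 1.27 to 1.71 in EC and SC and by 0.517 to 0.542 in SMF, so it raises fibres against the sorted cells. Each comparison was therefore made on the deposited scale and under 3 other scalings (median of ratios, upper quartile, and a total that leaves out the 50 top genes per group). All 3 move genes towards higher values in fibres, so a gene higher in sorted cells has the harder test. Below, a gene held over the 4 scalings when limma called it in 1 direction in each of them (adjusted p under 0.05, Benjamini-Hochberg). For a gene higher in fibres, holding adds little to the deposited call. Over all genes, 1431 were called higher in SMF than in SC as deposited and 1431 held. Of 1811 called higher in SMF than in EC, 1810 held. Differences are of log2(FPKM + 1), where low values change by less than their true fold. In bulk RNA, fewer cells of a type and less RNA per cell cannot be told apart.

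Most called differences between SC and EC were lower values in SC. On the deposited scale 7 members were higher in SC, against a background of 21.2% of all genes tested, and 14 were lower (background 16.4%), while 37 were not called. The members that held were 3 higher in SC (Map1lc3a, Sqstm1 and Atp6v0e2, background 12.4%) and 11 lower (Atg14, Atg12, Atg4a-ps, Bnip3, Bnip3l, Lamp1, Ctsa, Ctsc, Ctsd, Ctso and Atp6v1e1, background 14.6%). These are 5.17% and 19.0% of the 58 tested members. The median difference was -0.35 over members and 0.11 over all genes tested. Without SC 1 the deposited-scale counts were 5 and 6, without SC 3 they were 3 and 11, and without EC 1 they were 5 and 9. Whichever library was left out, 2 of the 3 and 6 of the 11 kept their call.

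Between SC and SMF, 20 members were higher in SC on the deposited scale (background 56.5%) and 14 were higher in SMF (background 8.57%). Those that held were 6 higher in SC (Atg16l2, Atg7, Lamp2, Ctso, Ctsz and Atp6v1a, background 27.3%) and 14 higher in SMF (Ulk2, Atg4a, Atg4a-ps, Atg9a, Map1lc3a, Bnip3, Tfeb, Lamp1, Ctsc, Ctsd, Atp6v0e2, Atp6v1d, Atp6v1e1 and Atp6v1g1, background again 8.57%). The shares of members were 10.3% and 24.1%. These directions did not face an equal test, since the other scalings raise fibres. Without any 1 library, all 6 and 9 of the 14 kept their call. The median difference, SC minus SMF, was 0.41 over members and 0.93 over all genes. Under the median of ratios it was -0.70 over members and 0.21 over all genes.

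Between EC and SMF, 30 members were higher in EC on the deposited scale (background 55.5%) and 7 were higher in SMF (background 10.8%). The 8 higher in EC that held were Atg16l2, Atg7, Ctsh, Ctsl, Ctso, Ctsz, Atp6v0e and Atp6v1a (background 32.0%), and the 7 higher in SMF were Atg4a, Atg9a, Map1lc3a, Bnip3, Ctsc, Atp6v0e2 and Atp6v1g1 (background 10.8%). These are 13.8% and 12.1% of the tested members, and here too the other scalings favour calls higher in fibres. Whichever library was left out, all 8 and 6 of the 7 kept their call, the exception being Atg4a. The median difference, EC minus SMF, was 0.68 over members and 0.85 over all genes, and under the median of ratios -0.38 and 0.20. The libraries of EC, SC and SMF each enter 2 of the 3 comparisons, so the comparisons are not independent of each other.

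**Figure D1:**
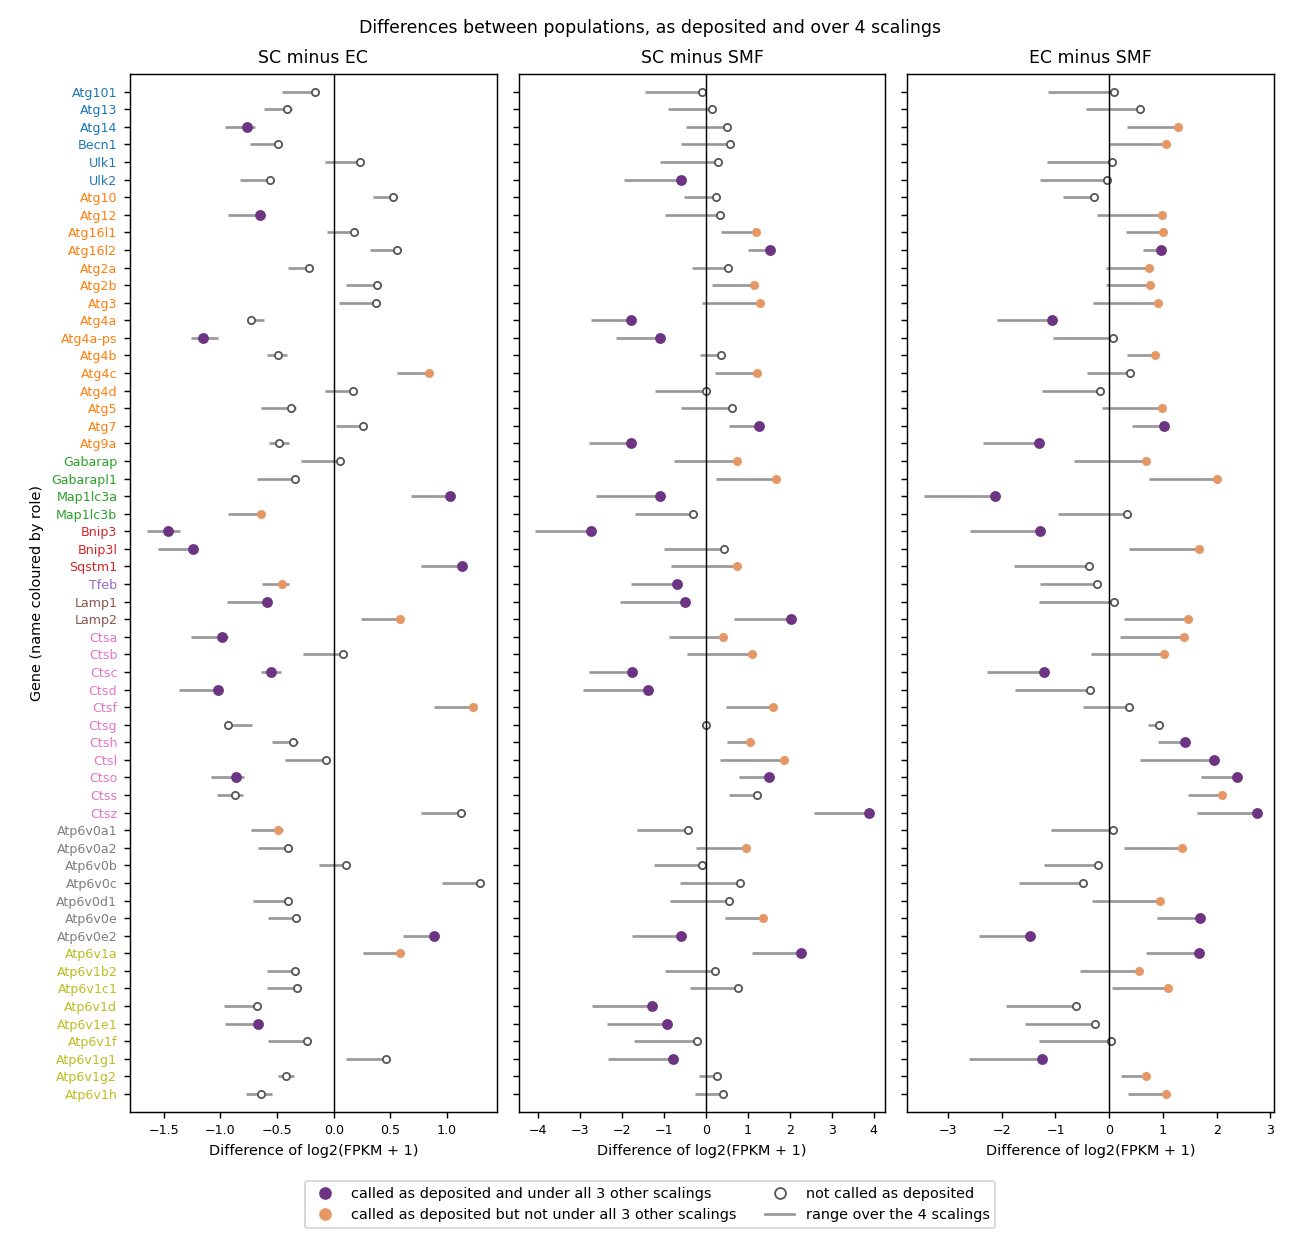
Difference of log2(FPKM + 1) between populations for each of the 58 tested members (vertical axis, names coloured by role), in 3 panels with their own horizontal scales: SC minus EC, SC minus SMF and EC minus SMF. Points are deposited-scale differences, filled dark where the call held over all 4 scalings, light where it did not, open where there was no call, and grey lines span the 4 scalings. The lines of the fibre panels run far to the left, and dark points lie on both sides of 0 in every panel.

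Some members carry in their promoters the letters CACGTG, the core of the E-box read by TFEB and many other factors, and 5 stretches are shown because their genes stand in different groups below. RefSeq promoter windows of GRCm38.p6 (250 bases before to 50 after the start) were found for 53 members. The palindrome CACGTG was in a window of 14 of them (26.4%) and of 8.09% of 27025 genes. The longer TCACGTGA, which contains it, was in 6 members (11.3%: Ctsa, Ctsd, Atp6v0d1, Atp6v1a, Atg3 and Atp6v0e) and in 1.12% of all genes. Both strings read the same on either strand. The 150 bases before an annotated start follow, 5′ to 3′ on the gene's strand, with CACGTG in capitals.
Lamp1, chr8:13159011-13159160, plus strand: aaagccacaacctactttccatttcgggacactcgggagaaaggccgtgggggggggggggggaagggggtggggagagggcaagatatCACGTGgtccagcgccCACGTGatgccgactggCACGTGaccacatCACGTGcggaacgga
Ctsd, chr7:142387828-142387977, minus strand: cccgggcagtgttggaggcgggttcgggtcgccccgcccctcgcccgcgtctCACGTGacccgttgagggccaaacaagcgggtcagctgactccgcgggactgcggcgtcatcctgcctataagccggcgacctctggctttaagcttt
Ctsa, chr2:164833623-164833772, plus strand: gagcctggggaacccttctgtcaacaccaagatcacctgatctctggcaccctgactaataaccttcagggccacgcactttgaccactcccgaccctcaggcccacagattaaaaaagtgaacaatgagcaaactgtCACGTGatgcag
Atp6v1a, chr16:44139260-44139409, minus strand: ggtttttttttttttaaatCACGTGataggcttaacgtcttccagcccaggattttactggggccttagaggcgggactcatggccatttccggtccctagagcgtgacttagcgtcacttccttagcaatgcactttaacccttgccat
Bnip3, chr7:138909507-138909656, minus strand: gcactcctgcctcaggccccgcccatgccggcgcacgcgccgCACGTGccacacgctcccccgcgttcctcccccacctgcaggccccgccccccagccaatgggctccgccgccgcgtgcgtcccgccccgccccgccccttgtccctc
Lamp1 has 4 copies in this stretch and the others have 1. For Ctsa the second of its annotated starts is shown, and the 150 bases before the first start hold no copy. The Atp6v1a stretch also lies before an inner start. It falls within the span of the gene, which reaches to 44139702 on its 5′ side. The genes printed differ in pattern: Ctsd, Lamp1 and Bnip3 were lower in SC than in both other populations, Atp6v1a was lowest in fibres and Ctsa was highest in EC on the deposited scale. A match is a description of these letters and not evidence of binding.

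Of the 6 initiation genes, Atg14 held as lower in SC than in EC and Ulk2 as lower in SC than in SMF, 1 of 6 (16.7%) in each case against 14.6% and 8.57% of all genes. Ulk1, the kinase that starts autophagy, lay at 6.92, 5.14 and 5.68 FPKM in EC, at 6.85 and 7.33 in SC and at 6.60, 4.92 and 5.37 in SMF, and was called in no comparison. The ranges of EC and SMF overlapped. Atg101, another subunit of the ULK1 complex, was also called in none and spanned 4.29 to 7.18 over the 8 libraries. Ulk2, the second kinase, was at 4.18 and 4.64 in SC and at 5.72 to 8.77 in both other populations. It held as lower in SC than in SMF (difference -0.59 ± 0.20 (SE), limma adjusted p = 0.0331), but the call was lost in the TPM table (0.139) and without SC 1, SC 3, SMF 2 or SMF 3 (adjusted p 0.0759 to 0.128).

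Atg14, which directs the beclin 1 complex to autophagy, was at 4.03, 3.18 and 5.45 FPKM in EC, at 1.64 and 2.45 in SC and at 1.01, 1.26 and 1.1 in SMF. No library of EC overlapped with SC or SMF. SC were lower than EC by -0.77 ± 0.22 (SE, limma adjusted p = 0.0258), a call lost in the TPM table (0.0764) and without EC 1 (0.0526), EC 3 (0.0539) or SC 1 (0.15). Becn1, beclin 1 itself, was at 4.82 to 5.37 in EC, at 2.34 and 4.66 in SC and at 1.43 to 2.32 in SMF. EC exceeded SMF by 1.07 ± 0.22 on the deposited scale (limma adjusted p = 0.00317), while the median of ratios gave a difference of 0.00 and ended the call. Atg13, a further subunit of the ULK1 complex, was called nowhere.

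Among the other 16 Atg genes, of which 15 were tested, both directions occurred. Atg7, the E1-like enzyme that activates ATG8 proteins and ATG12, was at 1.59, 1.74 and 1.80 FPKM in EC, at 1.88 and 2.67 in SC and at 0.338, 0.281 and 0.412 in SMF. Every library of EC and SC was above every fibre library, and both differences held: 1.01 ± 0.15 for EC minus SMF (limma adjusted p = 0.000471) and 1.28 ± 0.16 for SC minus SMF (0.000285). Atg16l2, a relative of the conjugation scaffold ATG16L1, gave 1.12, 0.679 and 1.74 in EC, 1.77 and 2.60 in SC and 0.142, 0.0503 and 0.0779 in SMF. It too was separated in all fibre libraries, by 0.97 for EC and 1.53 for SC (limma adjusted p = 0.00437 and 0.000792).

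Atg9a, the membrane protein that brings lipid to the growing membrane, ran the other way, at 4.23, 4.72 and 4.13 FPKM in SMF against 0.604, 1.03 and 2.07 in EC and 0.665 and 0.428 in SC. The fibre libraries did not overlap with either sorted population, and the differences were -1.31 ± 0.24 for EC minus SMF (limma adjusted p = 0.00154) and -1.80 ± 0.26 for SC minus SMF (0.000583). Atg9a has no TPM value, so these calls could not be tried there. Atg4a, a protease that trims ATG8 proteins, was at 3.59, 4.53 and 3.62 in SMF, at 2.83, 0.793 and 0.884 in EC and at 0.230 and 0.626 in SC. The difference from SC held (-1.79, limma adjusted p = 0.00205), and that from EC (-1.06, 0.0145) was lost in the TPM table (-0.33, 0.147) and without EC 3 (0.0502) or SMF 2 (0.0519). Its processed copy Atg4a-ps was lower in SC (0.913 and 1.1) than in EC (2.70 to 4.89) and SMF (2.45 to 3.76). Reads of Atg4a and this near-identical copy may have been divided between them in the authors' counting, so both are uncertain.

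Atg12, the ubiquitin-like protein joined to ATG5, was at 9.64, 8.60 and 8.49 FPKM in EC, at 4.73 and 5.93 in SC and at 4.39, 4.22 and 3.40 in SMF. SC minus EC, at -0.65 ± 0.16 (limma adjusted p = 0.0152), was lost without SC 1 (0.0982) and in the TPM table (0.10). EC minus SMF was 0.99 as deposited and -0.22 under the median of ratios. Atg3, the enzyme that attaches ATG8 proteins to lipid, was at 7.52 to 9.07 in EC, 8.84 and 14.6 in SC and 3.26 to 4.92 in SMF, and its order depended on the scale: EC minus SMF was 0.91 as deposited and -0.30 under the median of ratios. Atg2b, which moves lipid to the membrane, was at 2.13 to 2.4 in EC, 3.60 and 2.84 in SC and 0.717 to 1.05 in SMF. It and Atg5 and Atg2a were also called higher in EC than in SMF as deposited and had the opposite sign under the median of ratios. Atg4c, at 2.86 and 4.27 in SC against 1.14 to 1.76 in EC, was called as deposited (0.85, limma adjusted p = 0.0149) but not without SC 3 (0.102), in the TPM table or without the most abundant genes. Atg4d and Atg10 were called in no comparison.

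The 4 ATG8 family members of the rule differed in their proportions between the populations. Gabarapl2, of the same family but outside the rule, was called in no comparison. It was at 5.26 to 6.41 FPKM in EC, 4.51 and 4.76 in SC and 4.60 to 5.12 in SMF. Map1lc3a (LC3A; RefSeq GRCm38.p6 chr2:155276364-155278073) was at 33.2, 36.4 and 37.4 FPKM in SMF, at 15.9 and 16.4 in SC and at 9.31, 7.21 and 6.04 in EC. The 3 populations did not overlap, and each of the 3 differences held: -2.12 ± 0.17 for EC minus SMF (limma adjusted p = 1.52e-05), -1.09 ± 0.18 for SC minus SMF (0.00124) and 1.03 ± 0.18 for SC minus EC (0.00362). Over the 4 scalings EC minus SMF spanned -3.45 to -2.12. No alternative tried ended any of these 3 calls.

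Map1lc3b (LC3B), the form most used as a marker of autophagosomes, was at 11.1, 9.93 and 8.35 FPKM in EC, at 6.90 and 5.01 in SC and at 8.11, 8.79 and 6.03 in SMF. SC were lower than EC as deposited (-0.64 ± 0.21, limma adjusted p = 0.0472), which was lost under 2 other scalings and without EC 1 (0.116) or SC 3 (0.248), among others. Gabarapl1, of the GABARAP branch, was at 22.4, 30.1 and 22.9 in EC, at 23.5 and 16.1 in SC and at 7.38, 4.88 and 4.36 in SMF. All fibre libraries were below all others. EC exceeded SMF by 2.01 ± 0.23 (limma adjusted p = 0.000135) and, under the median of ratios, by 0.74 (0.0595). Gabarap was at 20.1 to 26.9 in EC, 20.2 and 28.9 in SC and 12.7 to 15.6 in SMF, called higher in EC than in SMF as deposited (0.68) and lower under the median of ratios (-0.66, limma adjusted p = 0.0260).

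Ratios of 2 genes within a library do not depend on the scaling. Map1lc3a over Map1lc3b was 0.837, 0.726 and 0.723 in EC, 2.30 and 3.28 in SC and 4.09, 4.14 and 6.20 in SMF. Gabarap over Gabarapl1 was 0.666 to 1.20 in EC, 1.23 and 1.25 in SC and 2.11 to 3.22 in SMF. So LC3A stood above LC3B in fibres and below it in EC, and in FPKM neither ratio overlapped between populations. An exact 2-sided permutation test gave p = 0.1 for EC against SMF in both ratios, the smallest value that 3 libraries against 3 allow. In the deposited TPM table, which divides by other transcript lengths, Map1lc3a over Map1lc3b was 0.385 to 0.501 in EC, 1.25 and 1.89 in SC and 1.37 to 2.53 in SMF, so that SC and SMF overlapped there. Gabarap over Gabarapl1 in TPM was 0.947 to 2.15 in EC, 2.11 and 1.61 in SC and 3.31 to 5.36 in SMF. For that ratio EC and SC overlapped.

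**Figure D2:**
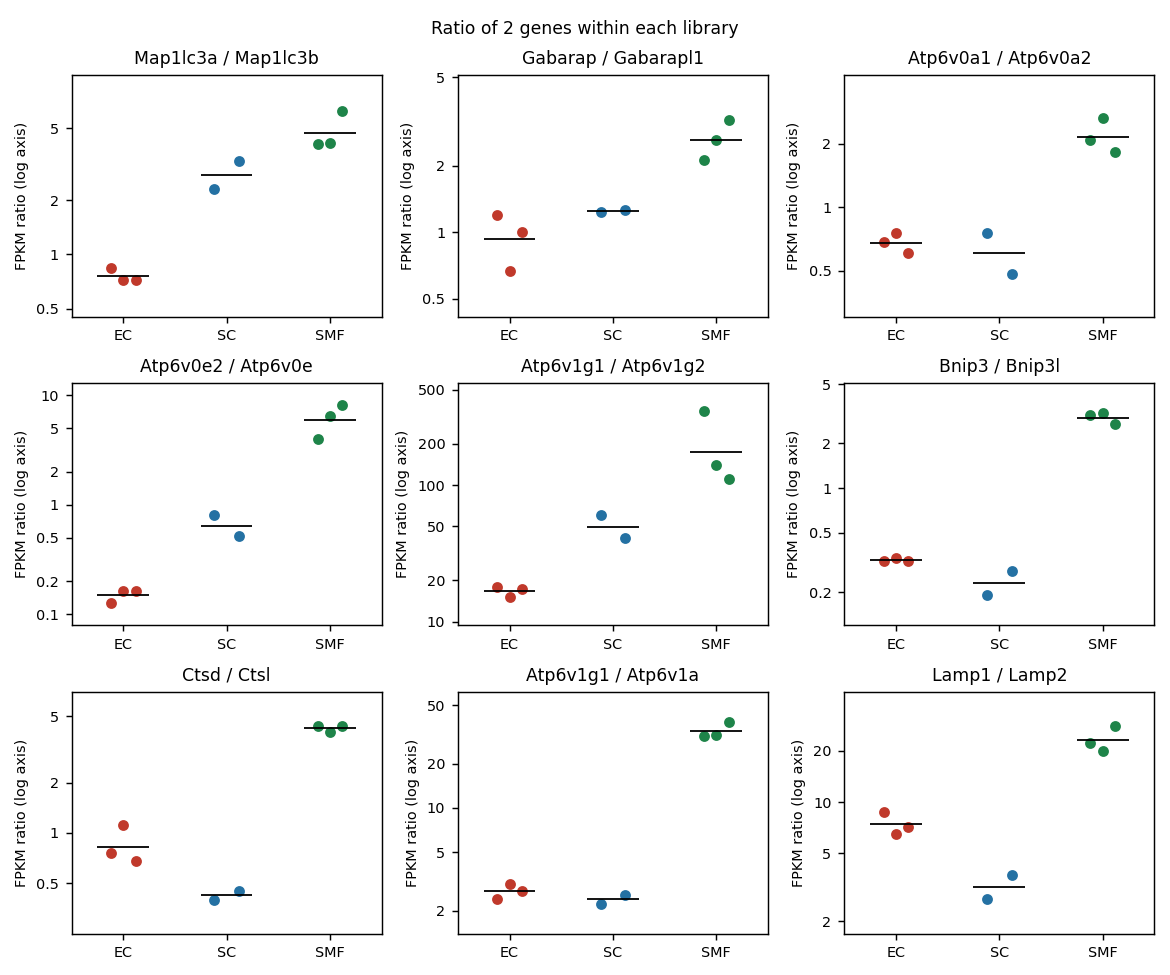
Ratio of the FPKM of 2 genes within each library, on logarithmic axes, for 9 pairs of members in EC, SC and SMF. Points are libraries and lines are geometric means of a population, the first 5 pairs being close relatives or forms of 1 subunit and the last 4 chosen after their values were seen. In all 9 panels the 3 fibre libraries lie above every EC and SC library.

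Of the receptors, Sqstm1 (p62; chr11:50200152-50210820) was the most abundant member of the set by FPKM in SC. It was at 132 and 93.2 FPKM in SC, at 47.5, 44.3 and 59.3 in EC and at 75.2, 53.4 and 69.4 in SMF. Both SC libraries lay above all others, while EC and SMF overlapped. SC exceeded EC by 1.13 ± 0.24 (limma adjusted p = 0.00779), lost without SC 1 (0.89, 0.0629). SC also exceeded SMF as deposited (0.75 ± 0.24, limma adjusted p = 0.0250), but under the median of ratios SMF were higher (-0.82, 0.0303).

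The pair of mitophagy receptors were both lower in SC than in EC and differed in their order between EC and SMF. Bnip3 (chr7:138890836-138909506 in the same assembly) was at 20.8, 20.5 and 21.0 FPKM in SMF, at 7.32, 9.46 and 7.22 in EC and at 1.71 and 2.91 in SC. All 3 populations were separate and all 3 differences held: -2.74 ± 0.20 for SC minus SMF (limma adjusted p = 1.7e-05), -1.28 ± 0.18 for EC minus SMF (0.000357) and -1.46 ± 0.20 for SC minus EC (0.000887). Bnip3l (NIX) was at 22.6, 28.1 and 22.3 in EC, with 8.89 and 10.5 in SC and 6.66, 6.45 and 7.83 in SMF. SC were lower than EC by -1.24 ± 0.17 (limma adjusted p = 0.000940), which held, while EC minus SMF fell from 1.66 ± 0.15 (3.6e-05) to 0.36 (0.106) under the median of ratios. Bnip3 over Bnip3l was 2.68 to 3.18 in fibres, 0.324 to 0.337 in EC and 0.192 and 0.277 in SC. In TPM it was 3.07 to 4.21 in fibres, and EC (0.225 to 0.432) overlapped with SC (0.0813 and 0.225).

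Tfeb, the transcription factor that activates lysosomal and autophagy genes when it enters the nucleus, was at 2.72, 3.10 and 2.95 FPKM in SMF, 2.26, 2.47 and 2.32 in EC and 1.58 and 1.31 in SC. The 3 populations did not overlap. SC minus SMF was -0.68 ± 0.13 (limma adjusted p = 0.00269) and held. SC minus EC was -0.46 ± 0.13 (0.0308), lost under upper-quartile scaling (0.0686) and without SC 3 (0.132), among others. EC minus SMF was not called (-0.23, 0.130). Its relative Tfe3 was at 0.390, 0.306 and 0.271 in SMF against 2.73 to 3.44 in EC and 2.67 and 2.44 in SC (EC minus SMF 1.62, limma adjusted p = 1.8e-05, held).

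Other genes of the TOR and TFEB pathway, which senses nutrients at the lysosome, were counted over 21 tested of 24 listed. Held calls were 3 higher and 1 lower in SC than in EC, 3 higher in SC and 5 higher in SMF between those, and 2 higher in EC and 4 higher in SMF between those. Over all genes tested, held calls were 12.4% and 14.6%, 27.3% and 8.57%, and 32.0% and 10.8% in the same order. Rragd, a Rag GTPase, was at 23.1, 26.5 and 18.1 FPKM in SMF, at 3.32 and 3.92 in SC and at 0.180, 0.311 and 0.352 in EC. EC minus SMF was -4.19 (limma adjusted p = 5.2e-07), and SC were separate from both. Fnip2, a partner of folliculin, was highest in EC, at 6.19 to 8.59 against 1.98 and 2.27 in SC and 0.0916 to 0.401 in SMF. Deptor, an inhibitor of TOR, was at 20.5 and 27.0 in SC and at 5.42 to 7.32 in all other libraries.

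The 2 tested Lamp genes differed in their pattern. Lamp1 was at 77.8, 68.0 and 76.9 FPKM in EC, 69.3, 68.0 and 70.5 in SMF and 44.6 and 54.0 in SC, so that SC lay below all others. The differences of SC from EC (-0.58 ± 0.16, limma adjusted p = 0.0244) and from SMF (-0.49 ± 0.16, 0.0293) were both lost without SC 1 (0.15 and 0.168) and in the TPM table (0.144 and 0.262). That from EC was also lost without EC 1 or EC 3, and that from SMF without any 1 fibre library. Lamp2 (chrX:38399647-38456460), whose loss causes a muscle and heart disease with stored autophagic vacuoles, was at 16.6 and 14.5 in SC, at 8.86, 10.5 and 10.8 in EC and at 3.13, 3.40 and 2.53 in SMF. SC minus SMF was 2.04 ± 0.16 (limma adjusted p = 2.7e-05) and held, with 0.68 at the lowest scaling. EC minus SMF was 1.46 ± 0.15 (6.13e-05) and did not hold (0.28 under the median of ratios). SC minus EC was 0.58 (0.0254) and did not hold: it was 0.24 (0.451) without the most abundant genes, 0.40 (0.175) under the median of ratios and 0.43 (0.317) in the TPM table. It was also lost without EC 1 (0.0672), SC 1 (0.132) or SC 3 (0.0547).

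Lamp1 over Lamp2 was 20.0 to 27.8 in SMF, 6.48 to 8.78 in EC and 2.69 and 3.73 in SC. The deposited transcript table lists 5 transcripts of Lamp2. ENSMUST00000061755 held the largest share of their summed FPKM in SC (70.8% and 77.6%), in SMF (59.3%, 62.1% and 72.7%) and in EC 1 and 3 (56.4% and 58.2%). In EC 2 it held 25.7% and ENSMUST00000016678 held 59.3%. These shares are among listed transcripts, since others are missing from the table, and were not tested.

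On the deposited scale some cathepsins were lower in fibres and others were not. Ctsl, cathepsin L, an abundant cysteine protease, was at 71.3, 63.0 and 74.7 FPKM in EC, at 75.9 and 57.6 in SC and at 17.7, 16.8 and 17.5 in SMF. All fibre libraries lay below all others. EC exceeded SMF by 1.94 ± 0.15 (limma adjusted p = 1.72e-05) and held. SC minus SMF was 1.87 ± 0.17 (5.3e-05) and did not hold under the median of ratios (0.33, 0.201). Ctsb, cathepsin B, was at 35.1 to 37.7 in EC, 38.3 and 38.6 in SC and 16.2 to 18.3 in SMF, and EC minus SMF changed from 1.01 as deposited to -0.35 under the median of ratios.

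Ctsz, a carboxypeptidase, was at 43.5 and 48.5 FPKM in SC, at 26.4, 17.2 and 18.8 in EC and at 2.24, 0.887 and 4.27 in SMF. The 3 populations did not overlap. SC minus SMF was 3.88 ± 0.40 (limma adjusted p = 8.92e-05) and EC minus SMF 2.76 ± 0.36 (0.000256), and both held and were lost under no alternative tried. Ctso was at 5.07, 5.49 and 6.48 in EC, at 2.17 and 3.23 in SC and at 0.279, 0.301 and 0.288 in SMF, again without overlap. Its 3 differences held, with EC minus SMF at 2.37 ± 0.15 (limma adjusted p = 5.91e-06). Ctsh, an aminopeptidase, was at 1.98 to 2.72 in EC and 0.0817 to 0.290 in SMF (1.41, 0.000120, held).

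Ctsd (chr7:142375910-142387827), cathepsin D, the main aspartic protease of the lysosome, was not among those low in fibres. It was at 77.6, 67.8 and 76.3 FPKM in SMF, at 53.7, 70.2 and 50.6 in EC and at 30.2 and 25.8 in SC. SC lay below all others, by -1.02 ± 0.19 from EC (limma adjusted p = 0.00466) and -1.37 ± 0.19 from SMF (0.000471), and both differences held. Ctsd has no TPM value, so its calls could not be tried there. Ctsc, the dipeptidyl peptidase that activates serine proteases of leukocytes, was at 5.04, 4.20 and 4.16 in SMF, at 1.33, 1.28 and 1.44 in EC and at 0.588 and 0.609 in SC. Every fibre library was above every other library. The leukocyte markers summed to at most 7.34 in fibres, and their relation to Ctsc was not tested. EC minus SMF was -1.21 ± 0.13 (limma adjusted p = 7.53e-05) and SC minus SMF -1.77 ± 0.14 (2.66e-05), both held. Ctsd over Ctsl was 4.04 to 4.39 in SMF, 0.677 to 1.11 in EC and 0.398 and 0.448 in SC.

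Ctsa, protective protein of the lysosomal sialidase, was at 10.2, 9.25 and 10.5 FPKM in EC, at 4.53 and 4.54 in SC and at 3.25, 3.11 and 3.25 in SMF. SC were lower than EC by -0.99 ± 0.13 (limma adjusted p = 0.000729), which held. Against SMF, SC were higher as deposited (0.40, 0.0267) and lower under all 3 other scalings (-0.88 to -0.44). Ctsf was at 4.96 and 6.77 in SC against 1.09 to 3.21 in EC (1.23, limma adjusted p = 0.0186), lost under 2 other scalings and without SC 3 (0.112).

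Ctss, a cathepsin of antigen-presenting cells, varied within populations. It was at 7.34, 0.993 and 10.1 FPKM in EC, at 1.02 and 3.83 in SC and at 0, 0.872 and 0.265 in SMF. In EC it was high in libraries 1 and 3, where the leukocyte markers summed to 69.2 and 92.9, and low in library 2, where they summed to 16.5. Of these markers Lyz2 alone gave 43.7, 7.94 and 62.3 in EC, while Adgre1 was at 0.475 in EC 1 and listed at 0 in all other libraries. Cd74 was highest in EC 2, at 2.75, 4.87 and 3.58 in EC 1, 2 and 3. The pericyte and smooth muscle markers were also lower in EC 2 (219) than in EC 1 and 3 (540 and 651). The part of leukocyte RNA in the value of Ctss was not tested. EC exceeded SMF by 2.10 ± 0.65 (limma adjusted p = 0.0223) and was lost without EC 1, EC 3, SMF 1 or SMF 3 (0.0594 to 0.0734). Ctsg, a protease of neutrophils and mast cells, was at 1.62 and 1.67 in EC 1 and 3 and listed at 0 in all other libraries.

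**Figure D3:**
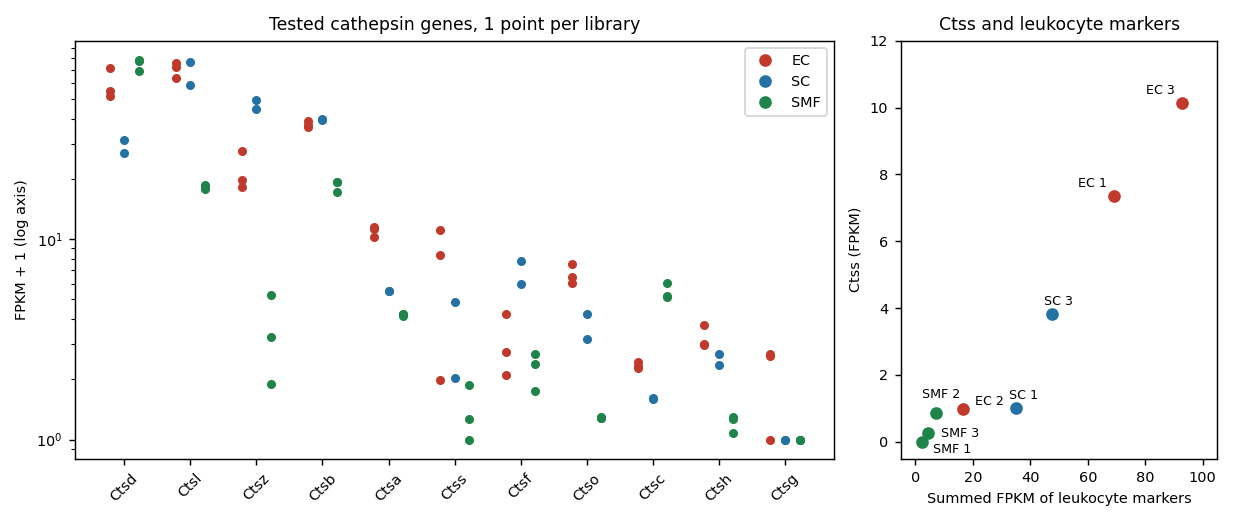
Left, FPKM + 1 on a logarithmic axis of the 11 tested cathepsin genes, 1 point per library, coloured by population. Right, FPKM of Ctss against the summed FPKM of the leukocyte markers in each library: EC 1 and EC 3 lie at the upper right, and EC 2 lies with SC 1 and the fibres near 1 or below.

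Among the subunits of the V0 sector, the 2 forms of subunit e stood in opposite order. Atp6v0e2 was at 3.30, 3.93 and 3.59 FPKM in SMF, at 2.32 and 1.78 in SC and at 0.522, 0.727 and 0.691 in EC. Atp6v0e was at 0.831, 0.609 and 0.445 in SMF, at 2.89 and 3.43 in SC and at 4.10, 4.41 and 4.20 in EC. The 3 populations did not overlap for either gene. The difference EC minus SMF was -1.48 ± 0.14 for Atp6v0e2 (limma adjusted p = 3.97e-05) and 1.69 ± 0.14 for Atp6v0e (2e-05), and both held. SC exceeded EC in Atp6v0e2 by 0.89 ± 0.15 (0.00305, held). SC minus SMF was -0.60 for Atp6v0e2 (0.00994, held), lost without SC 3 (0.0632) and in the TPM table (-0.24, 0.336). Atp6v0e2 over Atp6v0e was 0.127 to 0.165 in EC, 0.802 and 0.519 in SC and 3.97 to 8.06 in SMF, without overlap in the TPM table either (0.0508 to 0.0673, 0.460 and 0.360, and 1.61 to 3.17).

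The subunit a forms, which anchor the pump and steer it to different compartments, also shifted. Atp6v0a1 was at 3.65 to 4.71 FPKM in EC, 3.00 and 2.54 in SC and 3.56 to 4.28 in SMF, and Atp6v0a2 at 4.83 to 7.62, 3.96 and 5.25, and 1.61 to 2.05. Atp6v0a1 over Atp6v0a2 was 1.82 to 2.66 in SMF and at most 0.759 in EC and SC. In TPM it was 3.52 to 6.65 in SMF, 0.396 to 1.17 in EC and 1.05 and 1.69 in SC. Fibres thus stayed highest, but Atp6v0a1 exceeded Atp6v0a2 there in both SC libraries and in EC 2. EC exceeded SMF by 1.36 ± 0.19 for Atp6v0a2 (limma adjusted p = 0.000354) and did not hold (0.28 under the median of ratios). Atp6v0b was called nowhere. Atp6v0c, the proteolipid of the ring, was called nowhere either, and its libraries were uneven: 8.65, 0.777 and 8.86 in EC, 11.9 and 13.2 in SC and 10.5, 5.10 and 5.60 in SMF. A pseudogene, Atp6v0c-ps1, reached at most 0.314.

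Within the V1 sector the catalytic subunit A and the stalk subunit G1 went opposite ways. Atp6v1a (chr16:44085402-44139702) was at 1.41, 1.26 and 1.02 FPKM in SMF, at 5.76, 6.14 and 6.51 in EC and at 8.49 and 11 in SC. Atp6v1g1 (chr4:63544765-63550701) was at 43.2, 39.7 and 39.6 in SMF, at 13.8, 18.6 and 17.9 in EC and at 18.9 and 28.4 in SC. No fibre library overlapped with a sorted population in either gene. EC minus SMF was 1.68 ± 0.14 for Atp6v1a (limma adjusted p = 2.63e-05) and -1.25 ± 0.19 for Atp6v1g1 (0.000644), and both held. SC minus SMF was 2.26 ± 0.16 for Atp6v1a (1.66e-05, held) and -0.79 ± 0.21 for Atp6v1g1 (0.0122, held), the latter lost without SC 1 (0.0920) and in the TPM table (0.107). Atp6v1g1 over Atp6v1a was 30.7 to 38.7 in SMF against 2.23 to 3.02 in EC and SC.

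The alternative subunit Atp6v1g2, the form known from neurons, was low everywhere, at 0.767 to 1.23 FPKM in EC, 0.316 and 0.693 in SC and 0.124 to 0.357 in SMF. Atp6v1e1, subunit E of the stalk, was at 11.1, 11.1 and 14.0 in SMF, at 9.80, 9.36 and 10.4 in EC and at 5.37 and 6.26 in SC. SC lay below all others, by -0.67 ± 0.16 from EC (limma adjusted p = 0.0121, lost without SC 1, 0.0801) and by -0.93 ± 0.16 from SMF (0.00125), and both differences held. Atp6v1d, of the central shaft, was higher in SMF (18.7, 13.3 and 15.9) than in SC (8.98 and 3.70) by -1.29 ± 0.40 for SC minus SMF (limma adjusted p = 0.0226), lost without SC 3 (0.176), SMF 1 (0.0642) or SMF 3 (0.0533). Atp6v1c1 was at 5.68, 5.91 and 3.84 in EC, 2.91 and 5.0 in SC and 2.47, 2.61 and 0.844 in SMF. Atp6v1h was at 2.92, 1.42 and 2.57 in EC, 1.5 and 0.712 in SC and 0.675, 0.382 and 0.599 in SMF. Both were called higher in EC than in SMF as deposited (1.09 and 1.06), and neither held. Atp6v1f, at 15.6 to 24.0 over the 8 libraries, was called in no comparison.

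**Figure D4:**
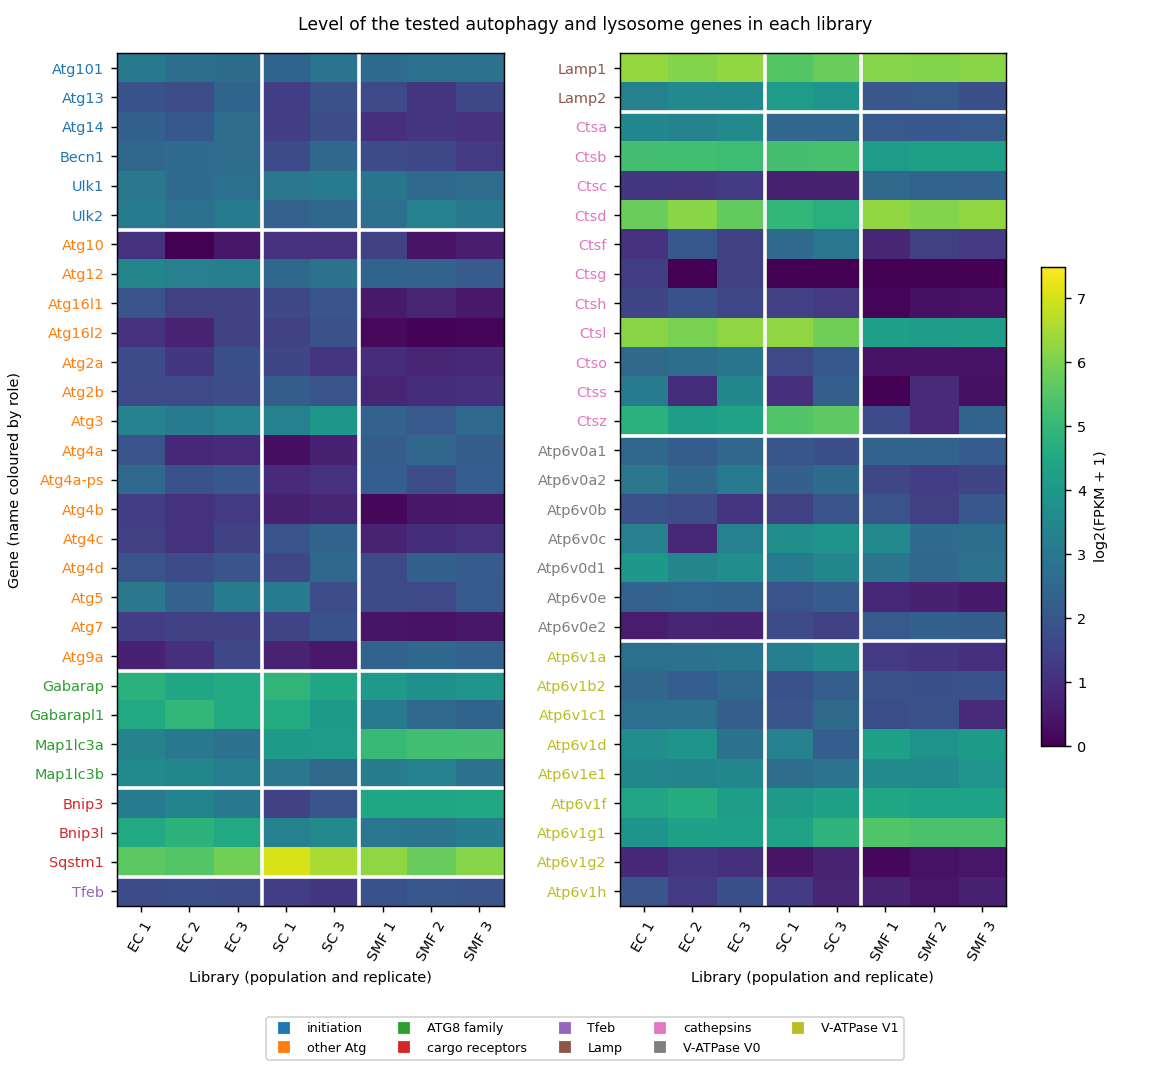
Level of the 58 tested members, as log2(FPKM + 1) by colour, in each of the 8 libraries (columns, grouped as EC, SC and SMF), with genes in rows grouped and coloured by role. Sqstm1 is brightest in the SC columns, Map1lc3a, Bnip3 and Atp6v1g1 are brighter in the SMF columns, and Ctsl, Ctsz and Ctso are darker there.

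The 12 members that were not tested were low in all libraries. Atg9b was the highest of them, at 1.35 FPKM in EC 3, and was listed at 0 in SMF. The others were Lamp3, Lamp5, Ctse, Ctsk, Ctsw, Atp6v0a4, Atp6v0c-ps1, Atp6v0d2, Atp6v1b1, Atp6v1c2 and Atp6v1g3, each under 1 FPKM throughout. They include the cathepsin of bone-resorbing cells (Ctsk) and pump forms known from kidney, such as Atp6v0a4 and Atp6v1b1. In all, 10 members were listed at 0 in every fibre library.

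Other genes of the same pathways were counted from 4 further lists. Of 29 tested autophagy genes outside the members, none was higher and 9 were lower in SC than in EC with calls that held, and against SMF 2 were higher and 2 lower in SC, and 4 higher and 2 lower in EC. The shares over all genes tested, in that order, were 12.4% and 14.6%, 27.3% and 8.57%, and 32.0% and 10.8%. Pink1, the kinase that marks damaged mitochondria, was at 60.8, 55.3 and 57.8 FPKM in SMF against 14.1 to 16.2 in EC and 12.9 and 12.4 in SC (EC minus SMF -1.88, limma adjusted p = 6.3e-06, held). Optn, a receptor in the same route, was at 16.5 to 17.6 in SMF, 6.49 to 9.04 in EC and 1.05 and 1.33 in SC, separate in all 3. Pink1 was not called between EC and SC (-0.23, limma adjusted p = 0.25).

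Of 34 tested lysosomal hydrolases, 1 held as higher and 10 as lower in SC than in EC, 10 as higher and 2 as lower in SC than in SMF, and 17 as higher and 1 as lower in EC than in SMF. Over all genes tested these shares were 12.4% and 14.6%, 27.3% and 8.57%, and 32.0% and 10.8%. The 2 lower in SC than in SMF were Gaa and Smpd1, the acid sphingomyelinase (-0.87, limma adjusted p = 0.0102), and the 1 lower in EC was Gaa. Gaa, the acid glucosidase whose loss causes glycogen storage in muscle, was at 18.6, 17.7 and 22.9 FPKM in SMF, 6.98 and 7.90 in SC and 2.99 to 3.63 in EC (EC minus SMF -2.27, limma adjusted p = 5.2e-06). Lipa, the acid lipase, stood in the reverse order, at 11.2 to 13.8 in EC, 2.86 and 4.77 in SC and 0.202 to 0.507 in SMF. Psap, the precursor of the activators of sphingolipid breakdown, was the most abundant, at 104 to 118 in EC, 77.6 and 69.2 in SC and 51.2 to 54.9 in SMF, and its order between EC and SMF turned with the scaling.

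Of 20 tested genes of the lysosomal membrane and sorting, 1 held as higher and 3 as lower in SC than in EC, 6 and 1 in SC against SMF, and 6 and 2 in EC against SMF. The same shares of all genes apply (12.4% and 14.6%, 27.3% and 8.57%, 32.0% and 10.8%), and several of these counts are near them. Cd63, a tetraspanin of late endosomes, was at 112 and 119 FPKM in SC, 19.0 to 20.8 in SMF and 3.03 to 4.81 in EC, separate in all 3 (SC minus EC 4.53, limma adjusted p = 2.2e-06). Tcirg1, the subunit a form of the pump named outside the Atp6v scheme, was at 7.51 and 11.5 in SC, 4.20 to 5.82 in EC and listed at 0 in all fibre libraries. Of the 2 tested cysteine protease inhibitors, Cst3 (cystatin C, a secreted inhibitor of cathepsins) was at 111 to 149 in EC, 63.4 to 80.6 in SMF and 21.0 and 16.4 in SC, with SC minus EC at -2.69 (limma adjusted p = 4.7e-05, held).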

How the data were processed

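RNA of 8 libraries was compared, grouped by sample title as EC (n = 3), SC (n = 2) and SMF (n = 3). Per the submitters' processing notes, FastQC, Trimmomatic, HISAT2, StringTie and bedtools were used with build mm10; their versions and settings, and whether strand was used, are not given in the sources. The authors deposited FPKM per gene, a table of TPM with the authors' specificity score (not used here), and a transcript table with FPKM and coverage, per the file headers. Libraries were made from 10 ng of RNA and read as pairs of 50 bp, per the labels.

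Differences were fitted with limma 3.58.1 in R 4.3.3 (mean-variance trend, log2(FPKM + 1), all 8 libraries, group means, no covariate). Genes had to reach 1 FPKM in 2 or more libraries and were tested 2-sided with Benjamini-Hochberg adjustment over 16700 genes and calls at adjusted p under 0.05. Tables used Python 3.11.15. The fit was tested on simulated data. Alternatives were 3 other scalings, pseudocounts of 0.1 and 5, no filter, a filter at 5 FPKM, the TPM table, a fit of 2 groups only, an absolute log2 difference of at least 1, a replicate block and leaving out each library. The TPM table lists 67 of the members and lacks Ctsd, Atg9a and Atp6v0c.

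Depth was estimated from deposited transcript coverage and FPKM. The gene FPKM of 28 of 62 members lay below the sum of their listed transcripts in all 8 libraries, so levels of different genes compare only roughly. The members, lists and markers were chosen with earlier results of these data known. Genes were named by rule: in each role up to 6 called at an absolute log2 difference of at least 1 with the highest mean, the 11 named singly, up to 2 called in no comparison and the forms of 1 subunit; from further lists, up to 2 called genes per comparison. Atg7, Atg12, Atg13, Atg16l2, Atg2a, Atg5, Lamp1, Ctsc, Ctsh, Ctso, Ctss and Atp6v1e1 were named after their values were seen, as were further-list genes outside that rule. Promoter windows and positions are from RefSeq, GRCm38.p6 (the assembly that mm10 names), where all 70 members were located.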

Additional observations from a re-analysis of the deposited data

How the results depend on the processing

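Counts of called members depended on the scaling of the libraries. The share of all genes called is not set beside the counts in this section. They show only how calls moved with the settings, not an excess over the background. Under the median of ratios, 4 members were higher in SC than in EC, 6 in SC than in SMF and 30 in SMF than in SC, 8 in EC than in SMF and 25 in SMF than in EC. Upper-quartile scaling gave 9 and 27 for SC and SMF and 11 and 24 for EC and SMF. When the 50 most abundant genes per group were dropped from the total, 3 were higher in SC than in EC, 11 and 22 were called for SC and SMF, and 18 and 18 for EC and SMF. A filter at 5 FPKM, which tests fewer genes, gave 13 and 8 for SC and SMF and 18 and 3 for EC and SMF. The TPM table gave 9 members higher in EC than in SC and 9 higher in SMF than in SC. Fits of 2 groups only gave 4 higher in SC than in EC and 8 lower. Requiring an absolute log2 difference of at least 1 left 3 higher and 4 lower in SC than in EC, 8 higher in SMF than in SC and 19 higher in EC than in SMF. The cause of these changes was not tested. Leaving out 1 library gave 3 to 8 members higher and 6 to 19 lower in SC than in EC, 18 to 26 higher and 11 to 15 lower in SC than in SMF, and 27 to 30 higher and 6 to 8 lower in EC than in SMF.

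Single members reversed only under other scalings. For SC minus SMF, the median of ratios gave -0.10 for Atg3, -0.77 for Gabarap, -0.82 for Sqstm1, -0.88 for Ctsa, -0.44 for Ctsb and -0.23 for Atp6v0a2. Upper-quartile scaling gave -0.45 for Gabarap, -0.48 for Sqstm1, -0.61 for Ctsa and -0.11 for Ctsb, and the scaling without abundant genes gave -0.26 for Gabarap, -0.29 for Sqstm1 and -0.44 for Ctsa. For EC minus SMF, the median of ratios gave -0.22 for Atg12, -0.064 for Atg2a, -0.068 for Atg2b, -0.30 for Atg3, -0.13 for Atg5, -0.66 for Gabarap, -0.35 for Ctsb, -0.32 for Atp6v0d1 and -0.55 for Atp6v1b2. Upper-quartile scaling gave -0.086 for Atg12, -0.17 for Atg3, -0.0087 for Atg5, -0.51 for Gabarap, -0.20 for Ctsb, -0.18 for Atp6v0d1 and -0.42 for Atp6v1b2.

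Whether the replicate numbers pair the samples is not known. Deviations of same-numbered libraries correlated at -0.06 to 0.09, and those of differently numbered libraries at -0.09 to 0.06. With 2 libraries the deviations of SC mirror each other, so these values cannot show whether samples were paired. With the number as a replicate block, 6 members were higher and 12 lower in SC than in EC, 18 and 13 in SC against SMF, and 32 and 7 in EC against SMF. With 2 or 3 libraries per population, low genes and differences of under about 1 log2 unit rest on few values. One fragment on 1 kb corresponds to 0.172 to 0.360 FPKM.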

Other observations

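Summed over role groups, the 14 cathepsin members reached 219, 210 and 213 FPKM in EC, 204 and 191 in SC and 123, 115 and 126 in SMF. The 12 members of the V1 sector reached 75.0, 84.2 and 71.0 in EC, 64.8 and 78.8 in SC and 101, 90.6 and 94.3 in SMF. On this scale the cathepsin sum was lower in every fibre library than in any sorted library, but under the median of ratios the order turned, at 221 to 238 in SMF against 112 to 165 in EC and SC. The V1 sum was higher in fibres on both of these scales (174 to 195 against 44.1 to 66.1 under the median of ratios). In TPM the populations overlapped, at 91.1 to 101 in SMF, 84.8 to 101 in EC and 61.5 and 93.4 in SC. Atp6v1g1 alone gave 39.6 to 43.2 FPKM of the sum in fibres. The 4 ATG8 members summed to 57.7 to 75.2 FPKM over all 8 libraries as deposited, with overlap between the populations, and under the median of ratios to 114 to 124 in SMF against 33.7 to 52.9 in EC and SC. These sums were not tested.

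The leading listed transcript of a population was taken from its mean shares. Leads were compared among members with a mean gene FPKM of at least 5 in at least 2 populations, and between those populations only. They differed for Atp6v0c, Atp6v1e1, Bnip3l, Map1lc3a, Map1lc3b, Sqstm1 and Ulk1. In each of these genes, libraries of the same population disagreed on the lead. For Sqstm1, ENSMUST00000147846 led in SC 1 (51.6%) and ENSMUST00000015981 in SC 3 (50.9%). For Map1lc3a, ENSMUST00000029128 led in EC 1 and EC 2 (69.0% and 56.6%), but ENSMUST00000154596 led EC by mean (58.1%). For Lamp2 the library EC 2 alone had another lead. Leads also differed for lower members and populations, such as Bnip3 in SC. Several of these rest on short transcripts that overlap others, and the table lists 89871 transcripts while their numbers run up to 115219, so the shares are a description only.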
